A study of Mus musculus with 2 samples.

Results

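The collagen and laminin genes were followed across the cell groups of the newborn mouse cortex. Members were all genes of the deposited gene list with a symbol of the form Col, number, a, number for collagen chains, or Lama, Lamb or Lamc and a number for laminin chains. This gave 55 of 27998 genes, of which 44 were collagens and 11 were laminins. Every member had at least 1 unique molecular identifier (UMI, the tag that marks 1 captured RNA molecule), and 42 had at least 50.

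Collagens are secreted proteins wound from several chains. Types I, III and V build fibrils in connective tissue, while type IV forms the sheet-like network of basement membranes, and laminins are crosses of an alpha, a beta and a gamma chain that start the assembly of those membranes. In the developing cortex, basement membranes lie around blood vessels and under the pia, where the endfeet of radial glia rest, and the membranes contain products of both vascular and glial cells.

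Cerebral cortex of C57BL/6 mice at postnatal day 0 was dissociated with papain, and single cells were captured with 10x Genomics Chromium droplets. There was 1 library labelled WT and 1 library labelled cKO, from STINGf/f;Nestin-Cre mice. Nestin-Cre acts in the neural lineage, where it removes STING (gene symbol Tmem173), and vessel cells, fibroblasts and microglia are not of that lineage. The labels give the WT library no floxed allele or Cre, whereas the study's text names STINGfl/fl as its control, so that group is called here the library labelled WT. How many animals entered each library is not given in the sources used here, and with no replicate in either group no test was made: intervals are exact 95% intervals of counting error, and each difference is between these libraries only.

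Tmem173 had 126 UMIs in the library labelled WT, or 2.26 counts per 1e6 UMIs (CPM), and 18 UMIs, or 0.327 CPM, in the cKO library. The files held 10715 and 9198 barcodes, of which 6601 WT and 5974 cKO cells were kept, with median depths of 6552 and 7537 UMIs. Xist had 10 UMIs in WT and 71370 in cKO, while genes of the Y chromosome had 9771 and 6, so sex and genotype cannot be told apart. The libraries shared 19 barcodes.

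Cells were placed in groups by UMIs of marker genes, none of them a collagen or laminin, and are called "-like" for that reason. Neuron-like cells made up 65.3% of WT and 73.2% of cKO cells. There were 762 WT and 543 cKO radial glia/astrocyte-like cells and 308 and 142 oligodendrocyte precursor (OPC)-like cells. Smaller groups were progenitor-like (342 and 242), microglia-like (61 and 33) and ependymal-like (45 and 15). The vascular groups were small, with 104 WT and 45 cKO endothelial-like cells and 27 and 23 mural-like cells (pericytes and smooth muscle). A further 65 WT and 17 cKO cells carried both endothelial and mural markers at median depths of 25675 and 26970 UMIs and were kept apart from both groups, although they held 33.0% of the WT and 15.8% of the cKO collagen UMIs. Only 3 WT cells and 1 cKO cell were placed as fibroblast-like, which required 5 of the 10 fibroblast markers (3 and 3 cells with 1 marker fewer). Dcn was at 1393 and 1158 CPM and Lum at 638 and 1241 CPM, but Crabp2 had no UMI. The 10 markers summed to 4279 and 3889 CPM. Mural markers in these cells summed to 1443 and 662 CPM and radial glia/astrocyte markers to 671 and 1324 CPM. Every fibroblast-like value below is that of these 4 cells.

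The chains of type IV collagen are coded in head-to-head pairs, and the positions of these pairs are shown first because the pairs behaved differently in the cells. GENCODE M21 (GRCm38) holds the identifiers of all 55 members, which lie on 17 chromosomes. Col4a1 (chromosome 8, 11198423 to 11312826, minus strand) and Col4a2 (11312805 to 11449287, plus strand) overlap by 22 bases at their starts. Col4a4 (chromosome 1, 82448423 to 82586849, minus) and Col4a3 (82586921 to 82722059, plus) leave 71 bases between their starts. Col4a6 (chromosome X, 141165403 to 141474076, minus) and Col4a5 (141475385 to 141689234, plus) leave 1308 bases. The sequences below come from RefSeq promoter windows (GRCm38.p6) and are read 5′ to 3′ on the strand given.
Col4a1 and Col4a2 starts, chr8:11312801-11312830, plus strand, with the 22 shared bases in capitals: cggcAGTGCGCGGGCGGCGTCTCCAAgggg
Between the Col4a4 and Col4a3 starts, chr1:82586850-82586920, plus strand: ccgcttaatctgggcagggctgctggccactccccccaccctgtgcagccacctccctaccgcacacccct
Upstream of Col4a6, chrX:141474077-141474326, minus strand, with TATAA and GGGCGG (either strand) in capitals: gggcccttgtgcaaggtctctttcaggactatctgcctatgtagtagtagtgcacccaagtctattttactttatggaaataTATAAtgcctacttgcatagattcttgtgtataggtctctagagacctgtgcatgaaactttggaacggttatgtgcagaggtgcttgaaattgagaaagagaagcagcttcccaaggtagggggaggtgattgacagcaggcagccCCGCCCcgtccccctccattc
Upstream of Col4a5, chrX:141475169-141475384, plus strand, with CCAAT in capitals: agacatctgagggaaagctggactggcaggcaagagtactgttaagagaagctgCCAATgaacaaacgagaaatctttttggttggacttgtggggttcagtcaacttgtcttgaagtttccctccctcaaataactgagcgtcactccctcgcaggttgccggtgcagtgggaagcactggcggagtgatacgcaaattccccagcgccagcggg
Of these motifs, searched on both strands, GGGCGG stood in 59.1% of the 44 promoter windows found for 40 members and in 35.7% of all 32851 windows. CCAAT stood in 31.8% against 37.4%, and TATAA in 20.5% against 24.9%. A match of letters says nothing about binding.

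Collagen RNA was concentrated in vascular and fibroblast-like cells. Summed collagen UMIs reached 4393 CPM (95% interval 4090 to 4712) in WT and 7184 CPM (6772 to 7614) in cKO mural-like cells. Endothelial-like cells had 1842 CPM in WT and 2152 CPM in cKO. In the 4 fibroblast-like cells the sum was 13643 and 19775 CPM, and collagens alone took 1.36% and 1.98% of all UMIs. Neuron-like cells had 87.0 and 75.7 CPM, and microglia-like cells, set beside them as cells of another lineage, had 41.7 and 23.3 CPM. Of the 42 WT member UMIs in microglia-like cells, Col27a1 gave 14 and Lamb2 10, and these were at 0.174 and 0.291 CPM in WT neuron-like cells. Of the 18 cKO member UMIs, Col27a1 gave 1 and Lamb2 6. Whether the rest of the microglia-like sum is a level shared by all droplets was not tested. The levels of mural-like cells were 50.5-fold and 94.9-fold those of neuron-like cells, and those of endothelial-like cells 21.2-fold and 28.4-fold.

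Laminins were also highest in these groups, at a lower level. Their sum was 1126 CPM (975.6 to 1294) in WT and 1558 CPM (1370 to 1766) in cKO mural-like cells, and 535 and 692 CPM in endothelial-like cells. Fibroblast-like cells, with 1141 and 1324 CPM, had intervals (886 to 1447 and 757 to 2150) that overlapped those of mural-like cells. The glial groups differed by family. Radial glia/astrocyte-like cells had 292 and 281 CPM of collagens and 102 and 126 CPM of laminins, whereas OPC-like cells had more collagen (357 and 373 CPM) and less laminin (49.3 and 52.1 CPM). Neuron-like cells, the most numerous, held 16.7% of the collagen UMIs of WT and 27.9% of those of cKO.

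**Figure D1:**
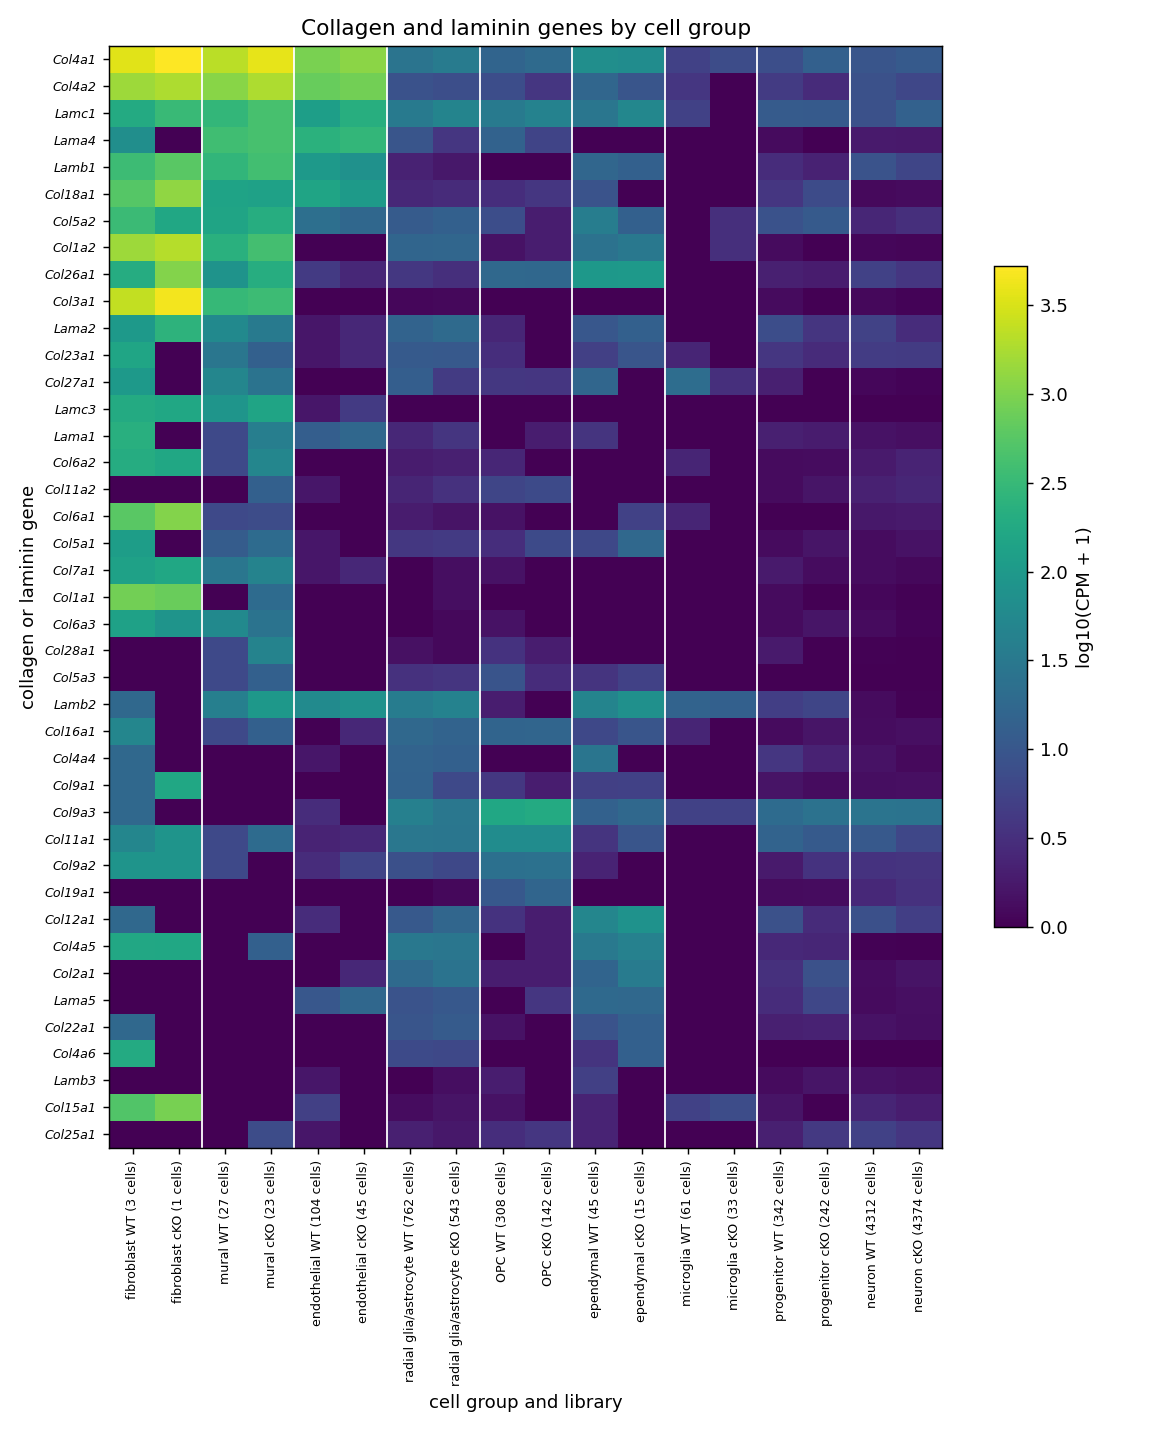
Heat map of 41 of the 42 members with at least 50 UMIs, in rows, as log10(CPM + 1) in 9 cell groups of both libraries, in columns, with the number of cells in each column label. Rows are ordered by the group, fibroblast-like cells left aside, in which the member was highest, and the brightest block is Col4a1 and Col4a2 in the fibroblast, mural and endothelial columns.

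The share of cells with any member UMI gave the same picture. Each cell was thinned to 1000 UMIs, and shallower cells were left out (1 WT mural-like and 1 cKO endothelial-like cell among the vascular groups). A member was then seen in 25 of 26 WT and 23 of 23 cKO mural-like cells, and in 86.5% (78.5 to 92.4) of WT and 90.9% (78.3 to 97.5) of cKO endothelial-like cells. The shares were 35.2% and 35.6% in radial glia/astrocyte-like cells and 34.2% and 35.9% in OPC-like cells. They were 10.1% and 8.68% in neuron-like cells, beside 11.9% (4.91 to 22.9) and 3.13% (0.0791 to 16.2) in microglia-like cells. Without thinning every mural- and endothelial-like cell had a member UMI, as did 89.4% and 93.9% of radial glia/astrocyte-like, 83.1% and 88.0% of OPC-like, 47.5% and 48.0% of neuron-like and 44.3% and 45.5% of microglia-like cells.

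Among single members, 22 of the 40 that could be compared were at least 4-fold higher in mural-like than in neuron-like cells in both libraries, against 7.59% of all genes compared (those with at least 20 UMIs over both groups and libraries). In endothelial-like cells this held for 10 of 35 members, against 10.1% of all genes. It held for 15 of 40 members in radial glia/astrocyte-like cells (all genes, 11.9%), for 8 of 34 in OPC-like cells (all genes, 7.0%) and for 20 of 39 in fibroblast-like cells (all genes, 3.32%). The rule needs only a high level in 1 of the groups compared, so the members counted are not all members. Of the 22 in mural-like cells, 10 rested on fewer than 20 UMIs there over both libraries, as did 8 of the 20 in fibroblast-like and 2 of the 8 in OPC-like cells.

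Col4a1 and Col4a2, the chains of the common type IV network of basement membranes, led the members. In mural-like cells Col4a1 was at 2134 CPM (1925 to 2360) in WT and 3757 CPM (3460 to 4071) in cKO, and in endothelial-like cells at 942 and 1170 CPM. Col4a2 was at 1138 CPM (986 to 1306) and 1793 CPM (1590 to 2014) in mural-like cells and at 707 and 842 CPM in endothelial-like cells. Fibroblast-like cells, described below, held more of both, and cells with both vascular marker lists had Col4a1 at 1487 and 1570 CPM and Col4a2 at 941 and 980 CPM. The neural groups had far less. Col4a1 was at 25.8 and 33.9 CPM in radial glia/astrocyte-like, 68.2 and 63.6 CPM in ependymal-like and 8.69 and 10.5 CPM in neuron-like cells. The neuron-like level lay within the interval of microglia-like cells (0.890 to 12.6 CPM in WT, from 3 UMIs), and so could not be told from that of microglia-like cells at this depth.

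The balance of the paired chains differed between vascular and radial glia/astrocyte-like cells. A UMI stands for the 3′ end of 1 molecule, so the chains are set side by side as UMIs without division by length. Endothelial-like cells had 1.33 (1.23 to 1.45) Col4a1 UMIs per Col4a2 UMI in WT and 1.39 (1.24 to 1.56) in cKO. The ratio was 1.88 (1.58 to 2.24) and 2.10 (1.82 to 2.42) in mural-like cells, above the endothelial intervals in both libraries. In radial glia/astrocyte-like cells it was 3.37 (2.44 to 4.73) and 5.0 (3.50 to 7.32), again above the intervals of mural-like cells. In neuron-like cells the ratio was not the same in the libraries, at 1.20 (1.01 to 1.42) in WT and 2.02 (1.71 to 2.40) in cKO. Progenitor-like cells had 2.0 (0.962 to 4.39) and 7.0 (2.96 to 20.2) with intervals that overlapped.

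Of the other 4 type IV chains, 3 were highest in radial glia/astrocyte- or ependymal-like cells when the fibroblast-like cells are left aside. Col4a5, on the X chromosome, was at 29.3 CPM (25.2 to 33.8) in WT and 27.7 CPM (23.5 to 32.5) in cKO radial glia/astrocyte-like cells, and at 30.7 and 42.4 CPM in ependymal-like cells. It had 2 UMIs in WT and 1 UMI in cKO neuron-like cells and none in endothelial-like cells of either library. Its head-to-head partner Col4a6 followed at 5.79 and 5.50 CPM in radial glia/astrocyte-like cells and had 2 and 3 UMIs in ependymal-like cells. In the 4 fibroblast-like cells Col4a5 had 10 WT and 2 cKO UMIs, or 168 and 166 CPM, and Col4a6 had 11 WT UMIs, or 185 CPM, and none in cKO. In radial glia/astrocyte-like cells there were 5.05 (3.54 to 7.40) Col4a5 UMIs per Col4a6 UMI in WT and 5.03 (3.38 to 7.72) in cKO. The intervals of the 2 libraries overlapped.

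Col4a4 was at 14.2 CPM (11.5 to 17.5) and 12.7 CPM (9.85 to 16.0) in radial glia/astrocyte-like cells, with 20 WT UMIs and none in cKO in ependymal-like cells. Its neighbour Col4a3, whose start lies 71 bases away, was far lower. Radial glia/astrocyte-like cells had 91 Col4a4 and 1 Col4a3 UMIs in WT, and 69 and 3 in cKO. Col4a3 had 23 UMIs over all kept cells, of which 5 WT and 1 cKO UMIs were in endothelial-like cells. A network of Col4a3, Col4a4 and Col4a5 chains is known from the kidney glomerulus, and its Col4a3 chain was nearly undetected here.

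**Figure D2:**
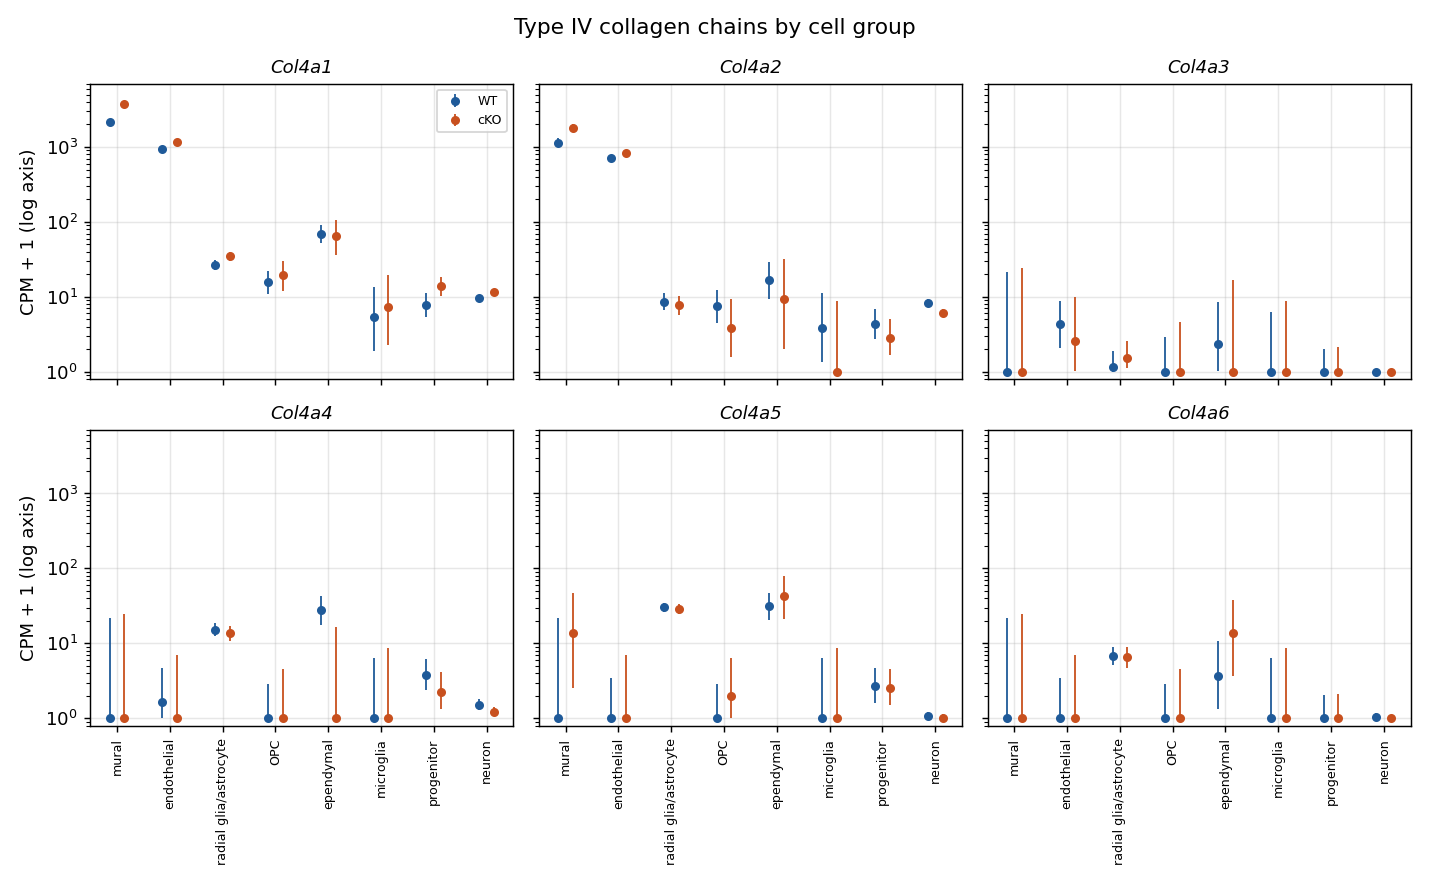
CPM + 1 on a log axis of the 6 type IV collagen chains in 8 cell groups (fibroblast-like cells not shown), in WT (blue) and cKO (orange), where points are library values and bars are exact 95% counting intervals. Col4a1 and Col4a2 peak in mural- and endothelial-like cells, while Col4a4, Col4a5 and Col4a6 peak in radial glia/astrocyte- and ependymal-like cells and Col4a3 is low throughout.

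Lamc1, Lama4, Lamb1 and Lamb2, the laminin chains with most UMIs, were highest in vascular groups when the fibroblast-like cells are left aside, but the ratio of the beta chains Lamb1 and Lamb2 differed between the groups. Lama4, the alpha chain of vascular laminin-411, was at 377 CPM (292 to 479) in WT and 424 CPM (329 to 539) in cKO mural-like cells and at 232 and 288 CPM in endothelial-like cells. It had no UMI in microglia- and ependymal-like cells and was at 0.843 and 0.779 CPM in neuron-like cells. Lamb1, a beta chain, was at 276 and 393 CPM in mural-like and 98.5 and 74.4 CPM in endothelial-like cells. Lamc1, the most widely used gamma chain, was at 287 and 431 CPM in mural-like, 121 and 217 CPM in endothelial-like and 32.7 and 47.3 CPM in radial glia/astrocyte-like cells.

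Lamb2, the other main beta chain, was the more abundant of the pair in radial glia/astrocyte-like cells. It was at 35.7 CPM (31.2 to 40.6) and 42.9 CPM (37.6 to 48.8) there, whereas Lamb1 had 8 WT and 4 cKO UMIs. Lamb1 made up 3.39% (1.48 to 6.57) of their Lamb1 and Lamb2 UMIs in WT and 1.68% (0.460 to 4.25) in cKO. The share was 62.6% and 49.5% in endothelial-like cells and 87.5% and 80.5% in mural-like cells. In neuron-like cells it was 96.5% and 99%, on Lamb1 levels of 7.94 and 5.08 CPM. Lamb2 was at 59.0 and 76.0 CPM in endothelial-like and 39.4 and 95 CPM in mural-like cells and at 70.9 and 96.8 CPM in cells with both marker lists, with 14.4 and 12.7 CPM in microglia-like cells.

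The remaining alpha and gamma chains had fewer UMIs. Lama5, an alpha chain of mature vessel laminin, was highest in ependymal-like cells (17.4 and 17.0 CPM) and was at 9.38 and 16.2 CPM in endothelial-like and 7.83 and 9.54 CPM in radial glia/astrocyte-like cells. Mural-like cells had no Lama5 UMI in either library, and the exact 95% intervals reach 20.8 and 23.4 CPM (3 UMIs would stand for 16.9 and 19.0 CPM). Lama2, the alpha chain lost in a congenital muscular dystrophy, was at 14.1 and 18.2 CPM in radial glia/astrocyte-like cells and at 56.3 and 31.7 CPM in mural-like cells, from 10 and 5 UMIs. Lamc3 was at 84.5 and 146 CPM in mural-like cells, with 1 UMI in all neuron-like cells. Lama1, an alpha chain of early basement membranes, was at 12.1 and 16.2 CPM in endothelial-like cells and had 1 WT and 6 cKO UMIs in mural-like cells. Lamb3, a beta chain of epithelial laminin, had 50 UMIs in all, and its highest level rested on 3 WT UMIs in ependymal-like cells, with none in cKO.

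**Figure D3:**
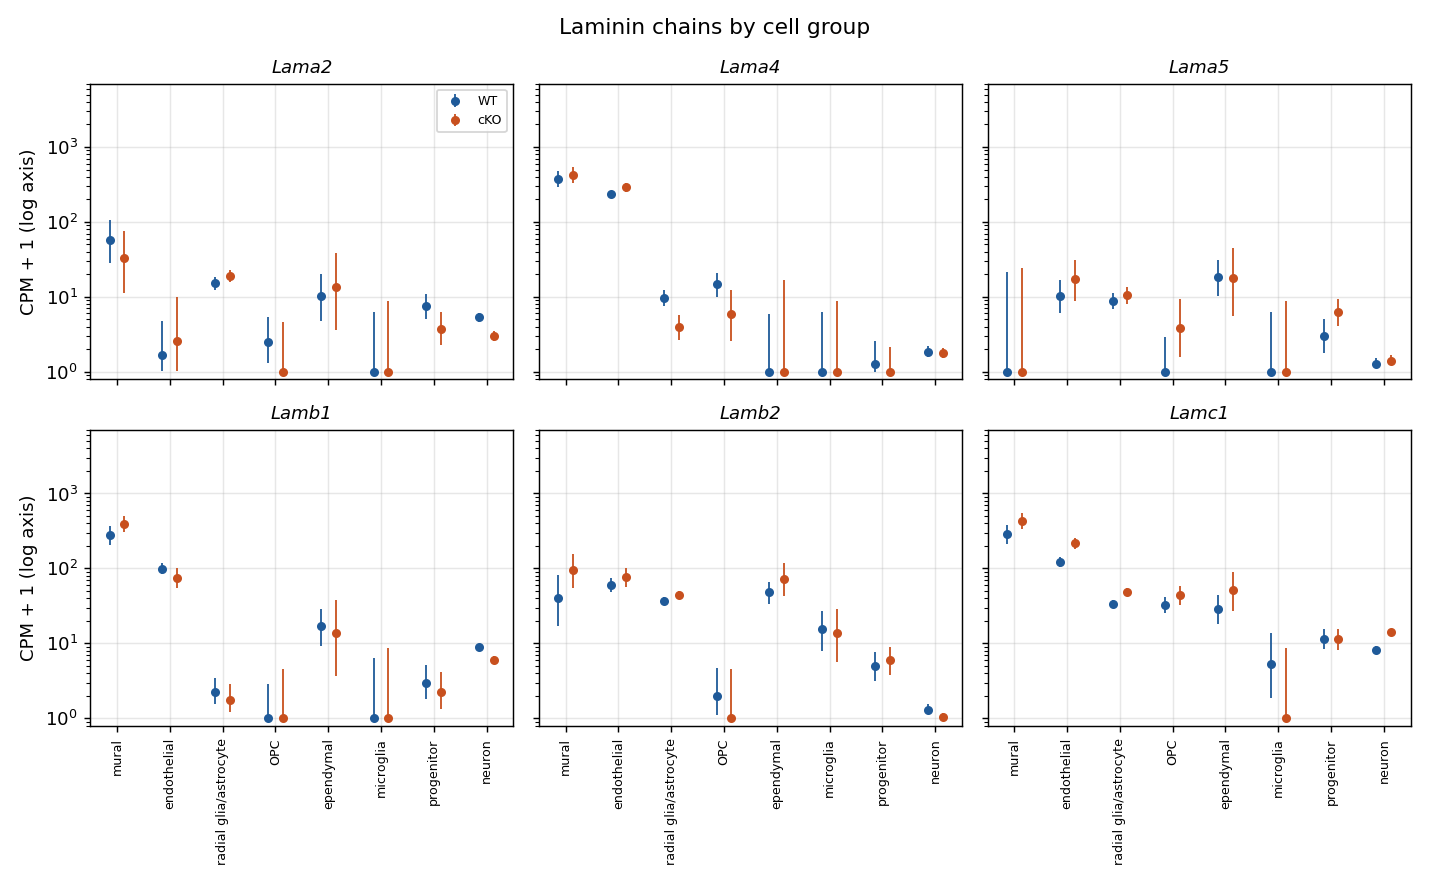
CPM + 1 on a log axis of 6 laminin chains in 8 cell groups (fibroblast-like cells not shown), in WT (blue) and cKO (orange), with exact 95% counting intervals. Lama4 and Lamb1 are highest in mural-like cells among these, and Lamb2 is far above Lamb1 in radial glia/astrocyte-like cells, where Lamb1 had 8 and 4 UMIs.

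Type I and type III collagen chains were highest in the fibroblast-like cells, and of these Col1a1 was nearly absent elsewhere. Col1a1, the alpha 1 chain of type I collagen, was at 856 CPM (637 to 1125) in the 3 WT and 745 CPM (341 to 1414) in the 1 cKO fibroblast-like cell. It had 0 UMIs in WT and 3 UMIs in cKO mural-like cells, and none in endothelial-like cells. Col1a2, which codes for the partner chain of Col1a1 in type I collagen, was at 1477 and 1986 CPM in fibroblast-like cells but also at 225 CPM (161 to 307) and 405 CPM (312 to 518) in mural-like cells. Col3a1, the chain of type III collagen, was at 2383 and 4468 CPM in fibroblast-like and 304 and 348 CPM in mural-like cells.

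Col1a2 was found nearly without its partner in radial glia/astrocyte- and ependymal-like cells, as in mural-like cells. Mural-like cells had 40 and 64 Col1a2 UMIs against 0 and 3 of Col1a1. Cells with both vascular marker lists had 170 and 42 against none, and OPC-like cells had 1 Col1a2 UMI in each library. Radial glia/astrocyte-like cells had 98 WT and 85 cKO Col1a2 UMIs, or 15.3 CPM (12.5 to 18.7) and 15.6 CPM (12.4 to 19.3), against 0 and 2 UMIs of Col1a1 and 1 and 1 of Col3a1. Ependymal-like cells likewise had 18 and 7 Col1a2 UMIs and no Col1a1 or Col3a1 UMI. In fibroblast-like cells there were only 1.73 (1.21 to 2.49) and 2.67 (1.20 to 6.52) Col1a2 UMIs per Col1a1 UMI. After thinning, 1.58% and 1.30% of radial glia/astrocyte-like cells had a Col1a2 UMI, against 0 of 4262 WT and 0 of 4343 cKO neuron-like cells, and without thinning 9.19% and 11.6% against 0.116% and 0.114%. GENCODE places exons on both sides of 123 bases near the start of Col1a2 (chromosome 6, 4504814 to 4541544, plus strand). That stretch, chr6:4505370-4505492, holds GGGCGG at 2 places, shown in capitals.
Near the start of Col1a2, plus strand: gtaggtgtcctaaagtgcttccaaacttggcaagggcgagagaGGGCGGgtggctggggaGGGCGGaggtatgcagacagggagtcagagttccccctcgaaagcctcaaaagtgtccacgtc
UMIs at the 3′ end do not tell which start was used.

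By the mean of both libraries, fibroblast-like cells held the highest level of 27 of the 42 members with at least 50 UMIs, and 11 of these rested on at least 20 UMIs. The share of all genes highest there was not counted, so the 27 have no background beside them. In these cells 1 UMI stands for 16.8 CPM in WT and 82.7 CPM in cKO. In WT alone 26 of the 27 were highest there, in cKO alone 19, and in each library 18. Beside Col1a1, Col1a2, Col3a1, Col4a1 (3491 and 5213 CPM) and Col4a2 (1510 and 1820 CPM), these were Col6a1 (587 and 1076 CPM), Col15a1 (503 and 910 CPM), Col18a1 (537 and 1241 CPM), Lamb1 (352 and 579 CPM), Col5a2 (336 and 166 CPM, the latter below cKO mural-like cells) and Col26a1 (201 and 1076 CPM). Types XV and XVIII are collagens of the basement membrane zone, and type VI forms fine beaded filaments. The other 16 had fewer UMIs in these cells, among them Lama1 with 13 and 0, Col6a2 with 12 and 2, Col4a6 with 11 and 0, Lamc3 with 11 and 2, Col4a5 with 10 and 2, Col23a1 with 9 and 0 and Col7a1 with 8 and 2. Col6a3 had 8 and 1, Col5a1 had 7 and 0, Lama2 had 6 and 3, Col27a1 had 6 and 0, Col9a2 had 5 and 1, Col16a1 had 3 and 0, Col11a1 had 3 and 1, and Col9a1 had 1 and 2. The cells were uneven, since 1 of the 3 WT cells gave 635 of their 813 collagen UMIs.

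In mural-like cells a second tier of collagens was present. Col5a2, a chain of fibril-regulating type V, was at 146 and 203 CPM, and Col18a1, the source of endostatin, was at 141 and 133 CPM beside 149 and 107 CPM in endothelial-like cells. Col18a1 overlaps Slc19a1 on the opposite strand by 8825 bases, and use of strand in counting is not given in the sources used here, so these values are uncertain. Slc19a1 was at 417 and 260 CPM in mural-like, 19.4 and 14.55 CPM in endothelial-like and 117.5 and 165.5 CPM in fibroblast-like cells. Its part in the Col18a1 values was not tested. Col26a1 was at 78.8 and 209 CPM in mural-like and 94.9 and 97.5 CPM in ependymal-like cells. Col6a3 (10 and 4 UMIs), Col27a1 (9 and 4), Col7a1 (5 and 7), Col23a1 (5 and 2), Col5a1 (2 and 3), Col6a2 (1 and 8), Col28a1 (1 and 7), Col5a3 (1 and 2) and Col6a1 (1 and 1) had fewer than 20 UMIs in mural-like cells, so cKO and WT were not compared for them there. Of these, Col6a3, Col27a1, Col7a1, Col5a1, Col6a2 and Col6a1 are among the 22 past 4-fold over neuron-like cells.

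Type II, IX and XI collagens, known from cartilage, had UMIs in glial groups. Col2a1, the chain of cartilage type II collagen, was at 18.5 CPM (15.3 to 22.1) in WT and 25.1 CPM (21.1 to 29.7) in cKO radial glia/astrocyte-like cells, with 11 and 8 UMIs (14.7 and 33.9 CPM) in ependymal-like cells. In neuron-like cells Col2a1 was at 0.320 and 0.578 CPM. Col9a3, a chain of type IX collagen, was highest in OPC-like cells at 162 CPM (144 to 180) and 188 CPM (163 to 217). Col11a1 (63.5 and 62.8 CPM) and Col9a2 (22.3 and 23.2 CPM) were also highest there when the fibroblast-like cells are left aside. The type IX chains did not all peak in 1 group, the fibroblast-like cells left aside. Col9a1 was at 13.6 and 5.69 CPM in radial glia/astrocyte-like cells and at 3.05 and 0.966 CPM, from 6 UMIs and 1 UMI, in OPC-like cells. Radial glia/astrocyte-like cells also held Col9a2 (7.20 and 5.32 CPM) and Col9a3 (40.7 and 28.6 CPM).

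Col9a3 (chromosome 2, 180597790 to 180622189, plus strand) overlaps the 3′ end of Tcfl5 (minus strand) by 234 bases. Tcfl5 was at 7.62 and 9.66 CPM in OPC-like and 3.87 and 3.60 CPM in neuron-like cells, below Col9a3 in each. The level of Col9a3 in neuron-like cells, 25.8 CPM (24.1 to 27.5) and 25.2 CPM (23.6 to 26.8), was above that of microglia-like cells, 4.32 and 4.24 CPM from 3 and 2 UMIs. After thinning, 17.6% of WT and 12.7% of cKO OPC-like cells had a Col9a3 UMI, against 2.16% and 1.73% of neuron-like cells and none of 59 and 32 microglia-like cells. Without thinning the shares were 43.8% and 60.6% of OPC-like, 15.2% and 15.1% of neuron-like and 4.92% and 6.06% of microglia-like cells.

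**Figure D4:**
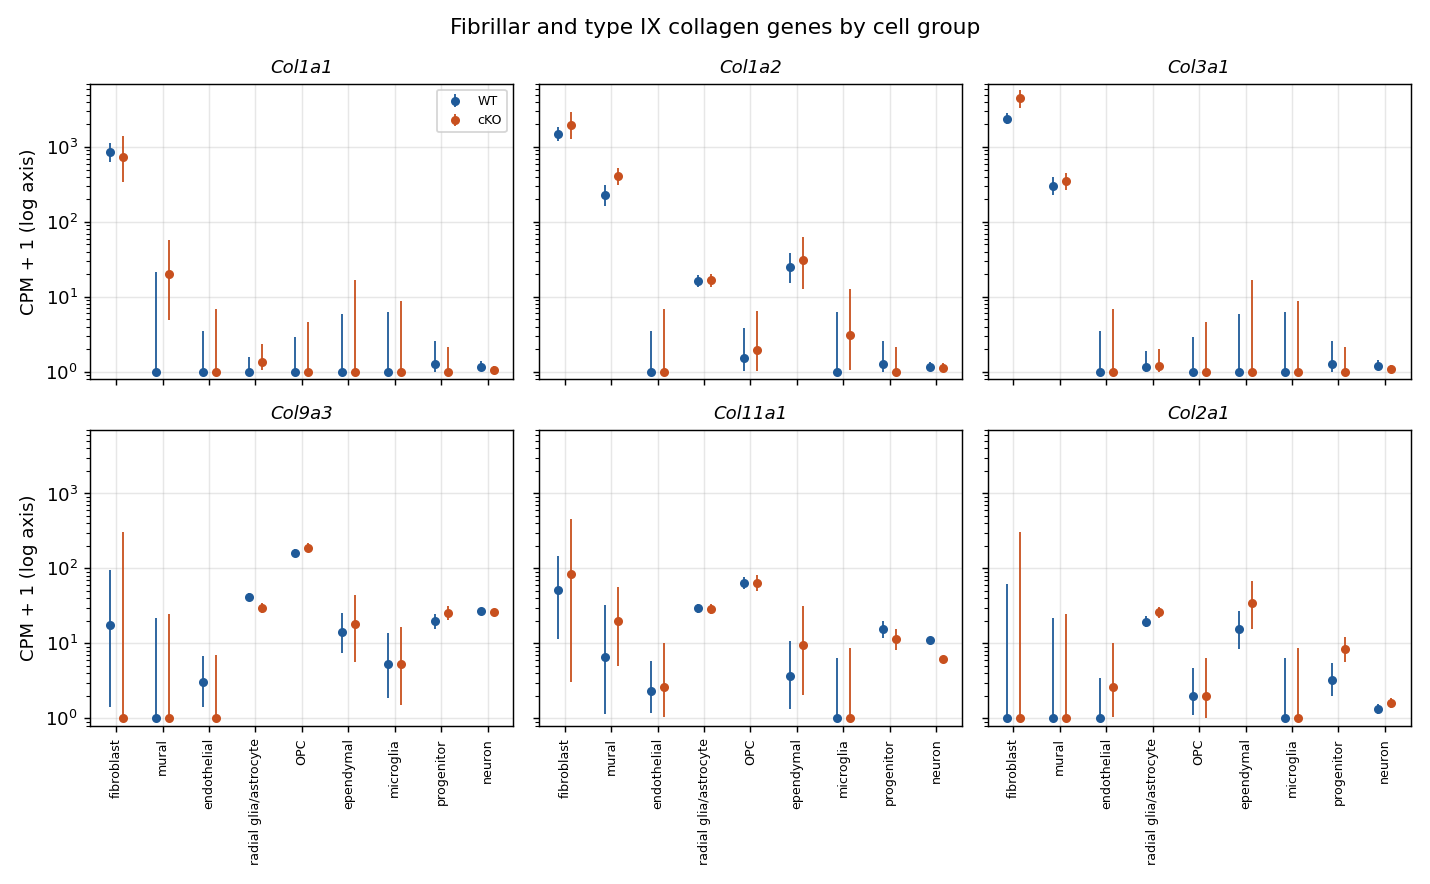
CPM + 1 on a log axis of 6 collagen genes in 9 cell groups, in WT (blue) and cKO (orange), with exact 95% counting intervals. Col1a1 stands out in fibroblast-like cells alone, Col1a2 is also seen in mural-, radial glia/astrocyte- and ependymal-like cells, and Col9a3 and Col11a1 peak in OPC-like cells, the 4 fibroblast-like cells aside for Col11a1.

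Further members were counted in the glial and ependymal groups. Col16a1 was at 16.8 and 14.1 CPM in radial glia/astrocyte-like and 14.7 and 15.4 CPM in OPC-like cells, and at 0.349 and 0.402 CPM in neuron-like cells. Col22a1 was at 8.46 and 10.8 CPM and Col23a1, a transmembrane collagen, at 10.3 and 10.1 CPM in radial glia/astrocyte-like cells. Col23a1 was not particular to them, at 28.2 and 12.7 CPM in mural-like cells from 5 and 2 UMIs, while Col22a1 was within the counting error of ependymal-like cells (8.02 and 12.7 CPM). Col12a1, a fibril-associated collagen, was highest in ependymal-like cells at 49.5 CPM (34.8 to 68.2) and 76.3 CPM (45.2 to 121). Col19a1 was highest in OPC-like cells at 9.65 and 15.4 CPM. Col5a3 (8.12 and 1.93 CPM) and Col11a2 (5.08 and 5.79 CPM) were low in OPC-like cells, and mural-like cells had 0 WT and 2 cKO UMIs of Col11a2. Col15a1, low outside fibroblast-like cells, was at 4.32 and 6.35 CPM in microglia-like cells from 3 UMIs in each library.

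The 7 members with most UMIs in neuron-like cells were Col9a3, Col11a1, Col4a1, Col4a2, Lamc1, Lamb1 and Col12a1 in both libraries, but of the 42 members only Col25a1 was highest in them over both libraries. Col25a1, a neuronal transmembrane collagen, was at 4.21 CPM (3.56 to 4.96) in WT and 2.89 CPM (2.39 to 3.47) in cKO, where 1 UMI in mural-like cells stood for 6.34 CPM. Neuron-like cells were split, after their values had been seen, into 2334 WT and 2451 cKO cells with a UMI of Neurod6 (a marker of excitatory neurons) and none of Gad2 (a marker of inhibitory neurons), and 1033 and 1033 cells with the reverse. Col25a1 was at 1.68 and 1.26 CPM in Neurod6 cells and at 10.9 and 8.80 CPM in Gad2 cells. Col19a1 (0.772 and 0.496 CPM against 4.18 and 8.06 CPM) showed the same order, with intervals apart in both libraries, as did Col6a1 (0.454 and 0.115 CPM against 2.01 and 3.13 CPM) and Col6a5 (2 and 0 UMIs against 9 and 8).

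Lama2 had the reverse order. It was at 6.26 CPM (5.26 to 7.40) in WT and 2.67 CPM (2.08 to 3.37) in cKO Neurod6 cells, against 1 UMI in each library in Gad2 cells. Lamb1 was also higher in Neurod6 cells (9.49 and 5.95 CPM against 3.51 and 3.28 CPM), as was Col9a3 (28.1 and 29.4 CPM against 20.4 and 17.0 CPM). Both had intervals apart in the 2 libraries.

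Members with fewer than 50 UMIs numbered 13. They were Col8a1 (45), Col6a4 (43), Col13a1 (32), Col14a1 (32), Col6a5 (26), Lama3 (25), Col4a3 (23), Col8a2 (22), Col24a1 (20), Col20a1 (10), Col17a1 (6), Col10a1 (4) and Col6a6 (3 UMIs). Of the 32 Col13a1 UMIs, 18 WT and 2 cKO UMIs came from the 4 fibroblast-like cells. Of the 22 Col8a2 UMIs, 10 WT UMIs and 1 cKO UMI came from ependymal-like cells. Col8a1, Col6a4, Col6a5 and Lama3 had most of their UMIs in neuron-like cells, at no more than 0.552 CPM.

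Genes that make, anchor, bind or break down these proteins were followed as 4 lists of 45 genes in all. Of 18 collagen-making genes, 16 could be compared in mural-like cells and 9 of these were at least 4-fold higher than in neuron-like cells in both libraries (all genes, 7.59%). This held for 5 of 14 in endothelial-like (all genes, 10.1%), 8 of 15 in radial glia/astrocyte-like (all genes, 11.9%) and 4 of 15 in OPC-like cells (all genes, 7.0%). Serpinh1, the collagen chaperone HSP47, was at 1076 and 1514 CPM in mural-like, 922 and 747 CPM in endothelial-like, 204 and 202 CPM in radial glia/astrocyte-like and 3.72 and 3.27 CPM in neuron-like cells. P4hb, a subunit of prolyl hydroxylase with other roles in the endoplasmic reticulum, was less uneven. It was at 175 and 241 CPM in mural-like, 198.5 and 171.5 CPM in microglia-like and 51.1 and 65.4 CPM in neuron-like cells. Plod1, a lysyl hydroxylase, was at 119 and 126 CPM in endothelial-like and 99.25 and 88.93 CPM in microglia-like cells.

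Of 7 basement membrane partners, all compared, 5 passed the same fold in mural-like (all genes, 7.59%), 6 in endothelial-like (10.1%) and 4 in radial glia/astrocyte-like cells (11.9%). Sparc, a collagen-binding protein, reached 4254 and 5590 CPM in endothelial-like, 2089 and 2927 CPM in mural-like and 542 and 762 CPM in radial glia/astrocyte-like cells. It was also at 1695 and 2234 CPM in the 4 fibroblast-like cells and at 1102 and 1349 CPM in microglia-like cells, where collagen and laminin sums were low. Nid1, which links laminin to type IV collagen, was at 479 and 842 CPM in mural-like and 223 and 268 CPM in endothelial-like cells. Fn1, fibronectin, was at 693 and 736 CPM in endothelial-like cells and passed the fold in that group alone among the 5 compared.

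Of the 13 receptors, 5 of 9 compared passed in mural-like (all genes, 7.59%), 3 of 8 in endothelial-like (10.1%) and 7 of 10 in radial glia/astrocyte-like cells (11.9%). Itgb1, the beta 1 integrin shared by collagen and laminin receptors, was at 507 and 1102 CPM in mural-like and 440 and 475 CPM in endothelial-like cells. Itga1, a collagen-binding alpha chain, was at 327 and 367 CPM in mural-like cells. Itga6, a laminin-binding one, was at 97.8 and 184 CPM in endothelial-like cells. It was not particular to them, at 109 and 144 CPM in microglia-like and 83.6 and 48.1 CPM in radial glia/astrocyte-like cells. Of 7 breakdown genes, 5 passed in mural-like (all genes, 7.59%), 3 in endothelial-like (10.1%) and 3 in radial glia/astrocyte-like cells (11.9%). In OPC-like cells 2 of 6 compared passed (7.0%). The protease Mmp9 was at 1554 and 1337 CPM in mural-like cells against 2 and 0 UMIs in endothelial-like cells. Mmp14 was at 95.7 and 215 CPM in mural-like and 122 and 111 CPM in radial glia/astrocyte-like cells. Timp3, an inhibitor of such proteases that binds to the matrix, was at 36.2 CPM in WT and 377 CPM in cKO endothelial-like cells. In radial glia/astrocyte-like cells Timp3 was at 240.5 and 293 CPM.

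The comparison of cKO with WT asked whether matrix genes differed between the genotypes within a cell group. For genes with at least 20 UMIs over both libraries, few members passed 2-fold. In mural-like cells 2 of 12 members were at least 2-fold higher in cKO, where 14.4% of all genes were, and 0 of 12 were lower (all genes, 12%). In endothelial-like cells 0 of 10 were higher (all genes, 6.57%) and 0 of 10 lower (all genes, 16.9%). In radial glia/astrocyte-like cells 0 of 28 were higher (all genes, 3.83%) and 3 of 28 lower (all genes, 11.3%). In OPC-like cells 0 of 9 were higher (all genes, 4.79%) and 1 of 9 lower (all genes, 13.4%). In neuron-like cells 0 of 33 were higher (all genes, 4.88%) and 3 of 33 lower (all genes, 18.6%). These member shares were near or below those of all genes. Among partner genes in mural-like cells, 4 of 5 breakdown genes (Mmp14, Timp2, Timp3 and Ctsk) were at least 2-fold higher in cKO (all genes, 14.4%). So were 1 of 8 collagen-making genes, 2 of 5 basement membrane partners and 1 of 3 receptors, and no partner was lower. In endothelial-like cells Timp3, of 3 breakdown genes, was higher (all genes, 6.57%). Partners past 2-fold in the other groups went in both directions.

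The median log2 ratio of cKO over WT over the members was 0.62 in mural-like cells, beside 0.11 over all genes compared there, and 0.31 in endothelial-like cells, beside -0.11. It was 0.09 in radial glia/astrocyte-like cells (all genes, -0.06), 0.07 in OPC-like cells (all genes, -0.06) and -0.06 in neuron-like cells (all genes, -0.18). TMM scaling moved the medians of members and of all genes together, to 0.75 and 0.24 in mural-like and to 0.05 and -0.07 in neuron-like cells. The smooth muscle markers Acta2 and Tagln were at 591 and 406 CPM in WT and at 6.34 and 0 CPM in cKO mural-like cells, and in the same cells the 10 neuron markers summed to 4325 and 437 CPM and the 6 cycling markers to 78.8 and 589 CPM. The part of these differences in the mural ratios was not tested. In Leiden clusters, where 65 WT and 48 cKO cells were called mural-like, summed collagens were at 6132 and 6144 CPM, so the higher cKO sum was not seen, and 5 of 21 members were at least 2-fold lower in cKO (all genes, 8.67%).

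In mural-like cells Col26a1 (14 and 33 UMIs) had a log2 ratio of 1.41 (0.47 to 2.42), and Lamb2 (7 and 15 UMIs) one of 1.27 (-0.11 to 2.81). Col4a1 was higher in cKO by a log2 ratio of 0.82 (0.63 to 1.00), Col4a2 by 0.66 (0.39 to 0.92), Col1a2 by 0.85 (0.26 to 1.46, but -0.36 in Leiden clusters) and Lamc1 by 0.58 (0.04 to 1.14). The intervals of Lamb1 (0.51), Lamc3 (0.79), Col5a2 (0.47), Col3a1 (0.20), Lama4 (0.17) and Col18a1 (-0.08) included 0. In cells with both endothelial and mural markers, which lay outside these groups, the log2 ratio was 0.08 (-0.03 to 0.18) for Col4a1 and 0.06 (-0.08 to 0.20) for Col4a2.

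In endothelial-like cells Lamc1 had the largest ratio of the 10 members compared, 0.84 (0.50 to 1.17), and those of Lama5 (0.79, -0.55 to 2.06), Lama1 (0.42, -0.86 to 1.61) and Lamb2 (0.37, -0.18 to 0.89) had intervals that included 0. Col4a1 had 0.31 (0.18 to 0.44), Lama4 0.31 (0.04 to 0.57), Col4a2 0.25 (0.10 to 0.41) and Col18a1 -0.48 (-0.90 to -0.08). Lamb1 (147 and 46 UMIs, -0.41, -0.92 to 0.08) and Col5a2 (32 and 10 UMIs, -0.41, -1.60 to 0.65) had ratios below 0 with intervals that included 0. In the same cells 5 erythroid markers summed to 53.6 CPM in WT and 1342 CPM in cKO, and the 6 cycling markers to 405 and 112 CPM, and their part in these ratios was not tested. Lamc1 was higher in cKO in radial glia/astrocyte-like (0.53, 0.26 to 0.80) and neuron-like cells (0.86, 0.64 to 1.08) as well, but not in progenitor-like cells (-0.01, -0.72 to 0.71, from 37 and 34 UMIs).

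The 3 members past 2-fold in radial glia/astrocyte-like cells were lower in cKO. Col27a1, a fibrillar collagen, had 75 UMIs in WT and 19 in cKO, or 11.8 CPM (9.24 to 14.7) and 3.48 CPM (2.10 to 5.44). Its log2 ratio was -1.75 (-2.56 to -1.01). In cells with both vascular marker lists Col27a1 was at 19.7 CPM (14.1 to 26.8) in WT and 3.46 CPM (0.419 to 12.5) in cKO, from 40 and 2 UMIs, and in microglia-like cells at 20.1 CPM (11 to 33.8) and 2.12 CPM (0.0536 to 11.8), from 14 UMIs and 1 UMI. Lama4 had 55 and 16 UMIs (-1.55, -2.46 to -0.73), and Col9a1 had 87 and 31 UMIs (-1.26, -1.90 to -0.65). Beside these, the markers that set this group summed to 23178 CPM in WT and 15736 CPM in cKO, and the OPC markers in the same cells to 739 and 276 CPM, and their part in these ratios was not tested.

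Other members of this group were less far apart. Col12a1 (0.68, 0.19 to 1.17), Col2a1 (0.44, 0.08 to 0.81) and Col4a1 (0.39, 0.08 to 0.70) had ratios above 0, and Col9a3 (-0.51, -0.81 to -0.22) one below. For Col4a5 (-0.08, -0.40 to 0.24), Col4a4 (-0.17, -0.64 to 0.30), Col4a6 (-0.07, -0.82 to 0.66), Col1a2 (0.02, -0.41 to 0.46), Lamb2 (0.27, -0.004 to 0.54), Col16a1 (-0.25, -0.69 to 0.19) and Col22a1 (0.36, -0.20 to 0.92) the interval bounds the difference at this depth. Those of Col4a5 and Col4a6 changed sign under TMM scaling.

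In OPC-like cells Lama4 was at 13.7 and 4.83 CPM, a log2 ratio of -1.51 (-3.24 to -0.11) from 27 and 5 UMIs. In the same cells the radial glia/astrocyte markers summed to 5593 CPM in WT and 2300 CPM in cKO and the OPC markers to 6103 and 4272 CPM, and 31 of 308 and 32 of 142 cells carried no more than the 5 markers that the group required. The part of these differences was not tested. Col9a3 (0.22, -0.04 to 0.48), Col11a1 (-0.02, -0.47 to 0.43), Col9a2 (0.05, -0.73 to 0.80) and Col19a1 (0.68, -0.38 to 1.72) had intervals that included 0. The sign of Col11a1 changed with TMM scaling.

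In neuron-like cells Lama2 was at 4.36 CPM (3.69 to 5.12) in WT and 2.01 CPM (1.59 to 2.50) in cKO, and its log2 ratio was -1.12 (-1.53 to -0.71). Col4a4 (18 and 9 UMIs, -1.21, -2.55 to 0.02) and Col8a1 (19 and 10 UMIs, -1.14, -2.40 to 0.04) were the other members past 2-fold. Col11a1 was at 9.97 and 5.13 CPM (-0.96, -1.22 to -0.70), Col12a1 at 7.03 and 3.90 CPM (-0.85, -1.15 to -0.56), Lamb1 had -0.64 (-0.91 to -0.38) and Col25a1 -0.54 (-0.91 to -0.18, but 0.32 under a stricter filter on cells). Of the 33 members compared, 7 had intervals below 0 and 2 above, Lamc1 (0.86) and Col4a1 (0.27, 0.05 to 0.49). Col9a3, with 887 and 1002 UMIs, had a ratio of -0.03 (-0.17 to 0.10) whose sign changed with TMM scaling. Neuron-like cells of the libraries did not fall into the same clusters: of 16 Leiden clusters called neuron-like, 7 held at least 90% of their cells from 1 library, with 2121 of 3687 WT and 1582 of 3780 cKO cells. The radial glia/astrocyte markers summed to 100.5 and 52.1 CPM in neuron-like cells. The part of both in these ratios was not tested.

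In ependymal-like cells, with 45 and 15 cells, Col12a1 (0.63, -0.27 to 1.47), Col26a1 (0.04, -0.71 to 0.74) and Col4a5 (0.46, -0.77 to 1.59) had wide intervals. The sign of Col26a1 changed with TMM scaling. In fibroblast-like cells 12 members had 20 UMIs or more, with log2 ratios from -1.02 (Col5a2) to 2.42 (Col26a1), which compare 3 cells with 1 cell.

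**Figure D5:**
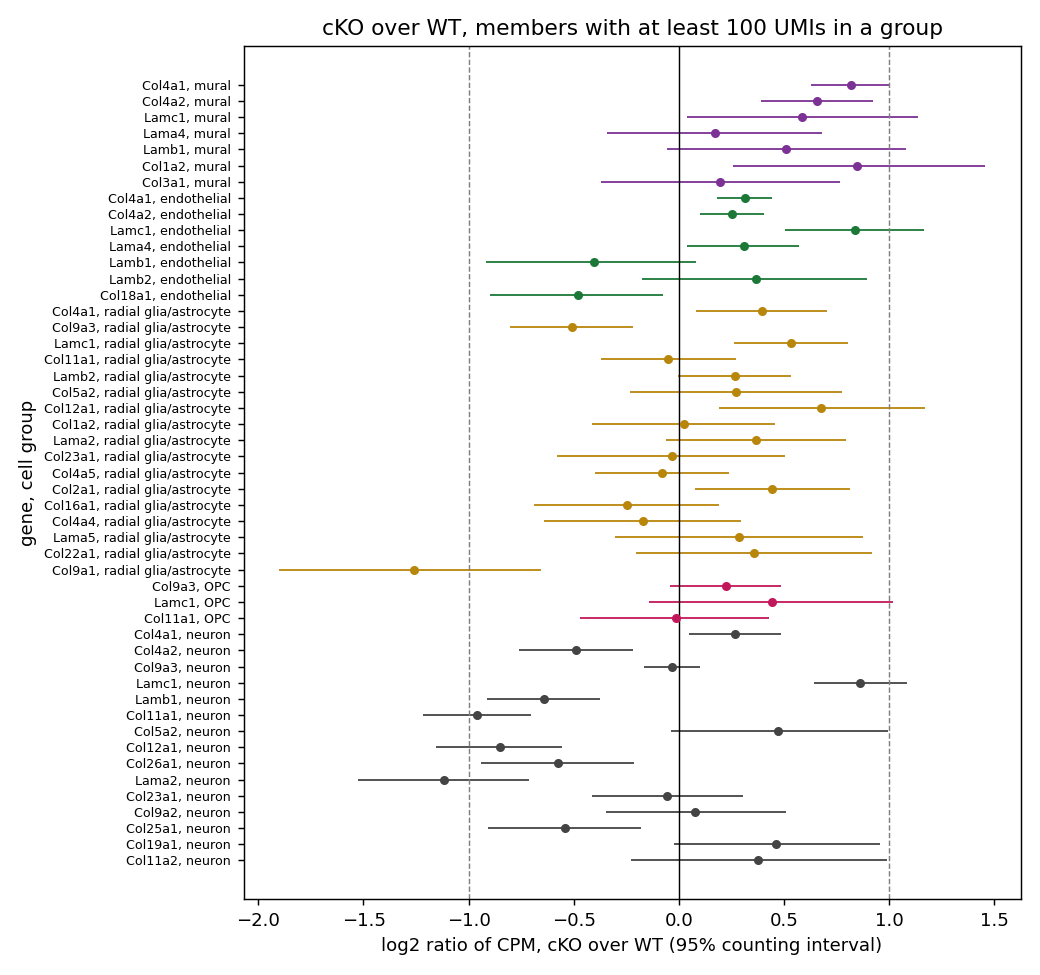
Log2 ratio of CPM, cKO over WT, for the 49 pairs of member and cell group with at least 100 UMIs over both libraries (rows, coloured by group), with exact 95% counting intervals and dashed lines at 2-fold. Mural- and endothelial-like ratios lie mostly right of 0, and Lama2 in neuron-like cells and Col9a1 in radial glia/astrocyte-like cells lie left of the dashed line at -1.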

How the data were processed

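Cells of 1 WT and 1 cKO cortex sample were captured with 10x Chromium per the labels, and the authors deposited a matrix of raw UMI counts per gene and barcode for each. The submitters' processing notes name Cell Ranger 2, STAR, Seurat and the mm9 build, while the file headers give Cell Ranger 3.0.1. Use of strand is not given in the sources used here. A matrix of both libraries combined and a table of the authors' own cluster fold changes were left aside.

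The filter on cells asked for 500 detected genes and no more than 10% mitochondrial UMIs. Mitochondrial UMIs were above 10% in 3845 WT and 3026 cKO barcodes. Doublets were called with Scrublet in Scanpy 1.11.5. Its automatic threshold marked 2.44% of WT and 0% of cKO cells, so a score above 0.25 was used in both libraries (165 and 106 cells). Progenitor-like cells aside, a non-neuronal group needed UMIs of 5 markers of its list. Progenitor-like cells reached no such group and had UMIs of at least 3 intermediate progenitor or 4 cycling markers. Neuron-like cells needed 5 markers of their list and at most 2 of any other list. Members, lists and these thresholds were chosen with earlier results of these data known.

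UMIs were summed per group and library and scaled to 1e6 (CPM). Intervals are exact Poisson for levels, Clopper-Pearson for shares and conditional binomial for ratios, and cover counting error only. In the fold rules 3 UMIs stood in for a reference count of 0, or of less than 3 in the rule between groups. The exact intervals at 0 reach somewhat above 3 UMIs. Each member with at least 50 UMIs was named with its values where highest, except 1 that is not reported here, and so were the 3 genes per partner list with most vascular and fibroblast-like UMIs. TMM factors came from edgeR 4.0.16 (R 4.3.3), for scaling alone. The calls were also run on simulated Poisson counts, with the rule between groups at 2-fold. Such counts hold no variation between cells or libraries, so that run cannot show how the calls behave under it.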

Additional observations from a re-analysis of the deposited data

Results flagged for a closer look

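The mural-, endothelial-, radial glia/astrocyte-, OPC- and neuron-like groups were set side by side, the smaller groups left aside. For 4 members the log2 ratio of cKO over WT had a counting interval above 0 in one of these groups and below 0 in another. The difference between the groups was not tested, since each genotype was 1 library. Col26a1 was at 1.41 in mural-like and -0.58 in neuron-like cells, a difference of 1.98. Lama4 was at 0.31 in endothelial-like cells, which was 1.86 above its ratio of -1.55 in radial glia/astrocyte-like cells and 1.81 above that of -1.51 in OPC-like cells. Col4a2 was at 0.66 in mural-like and 0.25 in endothelial-like cells, which were 1.15 and 0.74 above its ratio of -0.49 in neuron-like cells. Col12a1 was at 0.68 in radial glia/astrocyte-like and -0.85 in neuron-like cells, a difference of 1.53.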

How the results depend on the processing

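No paired analysis was possible because each genotype was 1 library. Beside the counts, other values were recomputed, of which 305 stayed the same, 82 moved and 2 reversed, and the 82 are not listed 1 by 1. The 2 are Col25a1 and Col1a2, given below. Small ratios whose sign changed with TMM scaling, given above, are not among the 2. Of the recomputed counts, 194 stayed within 1.5 times the value given and 29 did not. These follow, and their cause was not tested except where few cells were left by construction. Each count is given over the members compared, with the share of all genes under the same setting in brackets. The stricter filter (at least 1000 genes, at most 5% mitochondrial) left 1 mural-like cell in each library and no fibroblast-like cell, so that 3 of 14 mural members and 6 of 24 mural partner genes passed 4-fold (1.67%), as did 5 of 18 OPC members (5.09%), and collagen sums passed in 2 groups. This filter also left only 570 of 4312 WT and 706 of 4374 cKO neuron-like cells, the reference of every fold. Under it, members past 2-fold in cKO were 1 of 1 higher in mural-like (25.8%), 1 of 8 higher (11%) and 1 of 8 lower (18.1%) in endothelial-like, 0 of 5 lower in OPC-like (14%) and 2 of 14 higher (7.18%) and 1 of 14 lower (16.4%) in neuron-like cells, and Col25a1 in neuron-like cells reversed to 0.32. With no filter on cells, 2 of 11 were lower in OPC-like (14.1%) and 1 of 36 higher in neuron-like cells (4.6%). With 1 marker fewer, 4 of 11 were higher in cKO mural-like cells (14.5%). In Leiden clusters, none of which was fibroblast-like, 19 of 43 passed 4-fold in endothelial-like cells (12.9%), 1 of 21 was higher (11.4%) and 5 of 21 lower (8.67%) in cKO mural-like and 3 of 20 lower in endothelial-like cells (17.8%), and Col1a2 in mural-like cells reversed to -0.36. Keeping only vascular cells with at most 1 marker of the other vascular type, an alternative chosen after seeing the data, left 10 and 7 mural-like cells, with 12 of 36 past 4-fold (4.53%) and 1 of 7 higher in cKO (15.1%), and 1 of 10 lower in endothelial-like cells (16.7%). A 2-fold rule gave 23 of 40 in radial glia/astrocyte-like cells (21%) and an 8-fold rule 2 of 34 in OPC-like cells (3.54%). With at least 10 UMIs, 2 of 16 were lower in mural-like (17.7%), 1 of 14 higher (5.29%) and 4 of 14 lower (15.4%) in OPC-like and 8 of 40 lower in neuron-like cells (19.8%). With at least 50 UMIs, 0 of 8 were higher in mural-like (11.4%), 0 of 5 lower in OPC-like (9.8%) and 1 of 20 lower in neuron-like cells (16.7%). The log2 ratio of Col4a1 in mural-like cells ran from 0.34 (Leiden clusters) to 1.09 (stricter filter). TMM scaling, leaving mitochondrial, ribosomal and haemoglobin genes out of the totals, and keeping doublets moved none of these counts beyond 1.5 times. Depth limited the fibroblast-like group most, where 3 UMIs stand for 50.3 CPM in WT and 248 CPM in cKO, and the mural-like group next (16.9 and 19.0 CPM).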
